A study of Mus musculus with 6 samples.

Results

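Described here are 10 receptor genes of the CD300, Siglec and PILR families, read in macrophages of mouse liver tumours. They were taken by gene symbol from a table of 55291 genes, and all 10 were found and passed the filter on low values: Cd300a, Cd300lf, Cd300lb, Cd300ld and Cd300e of the CD300 family, Siglec1, Siglece and Cd33 of the Siglec family, and Pilra and Pilrb1 of the PILR family. The tumour-associated macrophages (TAM) carried the label TREM2_pos_TAM in 3 libraries, written TREM2+ here, and TREM2_neg_TAM in the other 3, written TREM2-. The tissue is given as liver tumor and the RNA as polyadenylated. The labels name no strain, age, tumour model or gate, and no separate mouse for each replicate. Every p-value below therefore reflects only how far these libraries vary, which may be technical variation. Reads recovered from the deposited values came to 11493465 to 19929829 per library. A family of 12 genes with repeat sequence took 0.43% to 24.6% of a library's total TPM, most in the libraries numbered 2 and 3 of either group, and mitochondrial genes took 2.42% to 12.3%.

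CD300 molecules carry a single immunoglobulin domain that recognises lipids exposed on dying cells and on membranes, such as phosphatidylserine and ceramide. Siglecs bind sialic acid at the tips of glycans, and PILR receptors bind certain sialylated proteins. In all 3 families, members with an inhibitory tyrosine motif (ITIM) in the tail recruit the phosphatases SHP-1 and SHP-2, while their activating partners have a short tail and borrow an adaptor such as DAP12 (Tyrobp) or the Fc receptor gamma chain (Fcer1g). Macrophages and other myeloid cells express several of them side by side.

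The PILR genes resemble each other in the DNA. Pilra and Pilrb1 lie next to each other on chromosome 5. A stretch of 246 bases near their starts was alike in 242 positions (98.4%) with no gap. Pilra and the further copy Pilrb2 were alike in 244 of 246 positions (99.2%), so the likeness is not particular to Pilra and Pilrb1. The windows compared ran from 250 bases before to 50 bases after each start. The stretch begins at -250 from the start of Pilrb1, a window edge, and at -196 from that of Pilra. It ends at the window edge in Pilra, so the windows set its length. The stretch of Pilra and Pilrb1 is shown because their transcripts are compared further on. The sequences are those of RefSeq on GRCm38.p6, the build also called mm10, minus strand, at chr5:137836229-137836474 for Pilra and chr5:137858054-137858299 for Pilrb1, 5′ to 3′, with the 4 positions that differ in capitals.
Pilra: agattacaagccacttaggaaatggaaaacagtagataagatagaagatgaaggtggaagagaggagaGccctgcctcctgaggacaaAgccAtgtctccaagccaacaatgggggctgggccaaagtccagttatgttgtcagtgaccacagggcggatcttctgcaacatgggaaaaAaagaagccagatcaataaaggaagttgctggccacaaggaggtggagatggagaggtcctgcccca
Pilrb1: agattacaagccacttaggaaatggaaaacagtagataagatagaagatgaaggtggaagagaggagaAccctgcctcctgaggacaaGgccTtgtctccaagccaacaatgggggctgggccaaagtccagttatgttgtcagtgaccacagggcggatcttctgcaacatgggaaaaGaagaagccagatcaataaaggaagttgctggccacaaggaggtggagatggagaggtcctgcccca

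Among the CD300 genes, the promoters of the 3 activating members are shown: Cd300ld and Cd300e, whose log2 fold changes were positive, and Cd300lb, whose log2 fold change was negative. None of these differences passed the test. Each window runs from 250 bases before to 50 bases after the start of the gene in RefSeq on GRCm38.p6. They lie on the minus strand at chr11:114989837-114990136 (Cd300ld), chr11:115061990-115062289 (Cd300e) and chr11:114934322-114934621 (Cd300lb). Capitals mark AGGAAGT, letters that hold the core of binding sites of ETS factors such as the myeloid factor PU.1, searched on both strands. Only the full run is marked, and the shorter AGGAAG also occurs without capitals in Cd300e and Cd300lb.
Cd300ld: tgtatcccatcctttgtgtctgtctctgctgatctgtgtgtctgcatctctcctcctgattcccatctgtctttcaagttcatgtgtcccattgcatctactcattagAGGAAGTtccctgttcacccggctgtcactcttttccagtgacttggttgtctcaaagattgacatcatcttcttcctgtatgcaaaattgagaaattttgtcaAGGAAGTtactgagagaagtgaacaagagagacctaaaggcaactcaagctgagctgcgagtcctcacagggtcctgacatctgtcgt
Cd300e: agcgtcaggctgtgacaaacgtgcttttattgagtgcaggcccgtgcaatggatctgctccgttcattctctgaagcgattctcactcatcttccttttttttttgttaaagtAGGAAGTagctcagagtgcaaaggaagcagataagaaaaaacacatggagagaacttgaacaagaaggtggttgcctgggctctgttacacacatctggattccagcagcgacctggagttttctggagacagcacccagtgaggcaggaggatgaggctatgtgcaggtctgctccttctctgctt
Cd300lb: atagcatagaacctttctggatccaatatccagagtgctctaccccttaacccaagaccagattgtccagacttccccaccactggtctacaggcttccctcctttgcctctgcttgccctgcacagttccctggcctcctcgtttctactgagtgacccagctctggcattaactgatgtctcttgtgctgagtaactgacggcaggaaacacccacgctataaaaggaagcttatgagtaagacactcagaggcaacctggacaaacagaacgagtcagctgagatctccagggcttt

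These letters occurred in 5 of the 9 members with a RefSeq promoter, namely Pilra, Pilrb1, Cd300ld, Cd300e and Cd300lf, and in 9.35% of all 32851 promoter windows. In Pilra and Pilrb1 they lie in the stretch the genes share, so these are not separate occurrences. Of the members with a window but without the letters, Cd33 and Siglece had positive and Cd300a and Cd300lb negative log2 fold changes. The motif was picked after the windows had been read, and a match is no evidence of binding.

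All 10 receptors were transcribed in every library, at levels that spanned a wide range. TPM, here each deposited column rescaled to a total of 1000000, is a level per transcript length. In the TREM2+ libraries Cd300lf was the highest at 437 ± 91 TPM (SD, n = 3), followed by Cd300ld at 291 ± 45.8 and Pilra at 247 ± 19.3 TPM. Siglece at 149 ± 45.1, Cd300a at 137 ± 26.3, Cd300lb at 122 ± 22 and Pilrb1 at 119 ± 7.27 TPM formed a middle tier in which neighbours differed by less than their SDs. Cd33 at 74.2 ± 27.5 and Cd300e at 38.3 ± 11.5 TPM were lower, and Siglec1 at 6.43 ± 2.28 TPM was the lowest. In the TREM2- libraries Cd300lf was again the highest at 314 ± 111 TPM and Siglec1 again the lowest at 1.83 ± 0.45 TPM. There Cd300lb (207 ± 102 TPM) stood level with Cd300ld (193 ± 61 TPM).

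**Figure D1:**
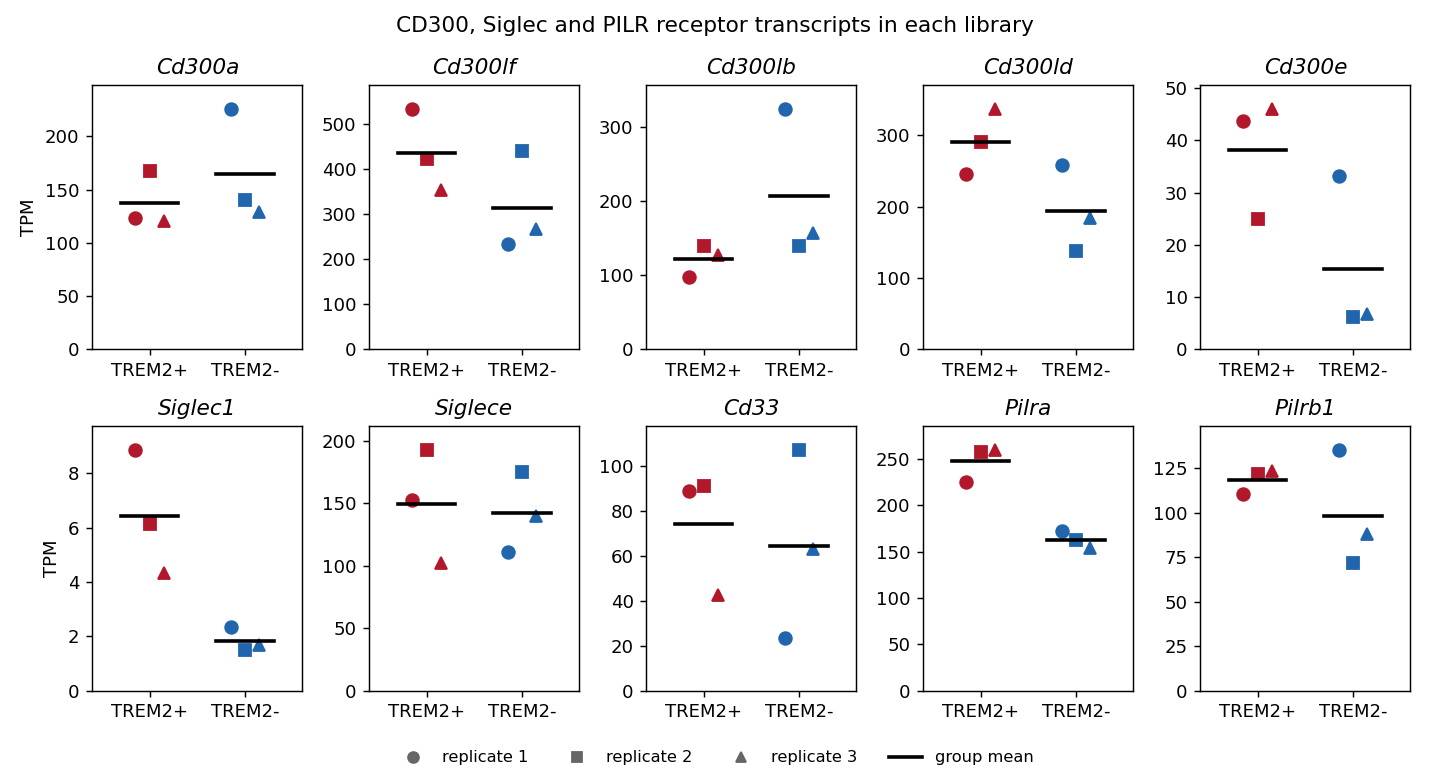
TPM of each of the 10 receptors (vertical axes, each from 0) in the 3 TREM2+ libraries (red) and the 3 TREM2- libraries (blue), with symbols for the replicate and a bar for the group mean. The groups separate for Siglec1 and Pilra and overlap for the other 8 genes.

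The labels set up a single comparison, TREM2+ against TREM2-. Siglec1 rose in the TREM2+ libraries and was the only 1 of the 10 receptors that passed the test. Of the other 9 receptors, 7 had positive and 2 negative log2 fold changes, and none of them passed. At an unadjusted p under 0.05 there were 4 receptors (Siglec1, Pilra, Cd300e and Cd300ld), all higher, where 7.45% of all tested genes were higher and 5.34% lower at that p. Across all 13788 genes tested with limma, 2.05% were called higher (282 genes) and 0.370% lower (51 genes) at an adjusted p under 0.05. On the deposited values without rescaling the split was 206 higher and 92 lower. The groups did not overlap for 2 of the 10 receptors, both higher in TREM2+, where this held for 9.07% of all tested genes, and for 0 receptors in the lower direction, against 7.62% of all genes. The median log2 fold change of the 10 receptors was 0.44, and that of all tested genes was -0.09. Fold changes are differences of log2(TPM + 1), which understates those of low genes, and their errors are standard errors of the limma fit.

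**Figure D2:**
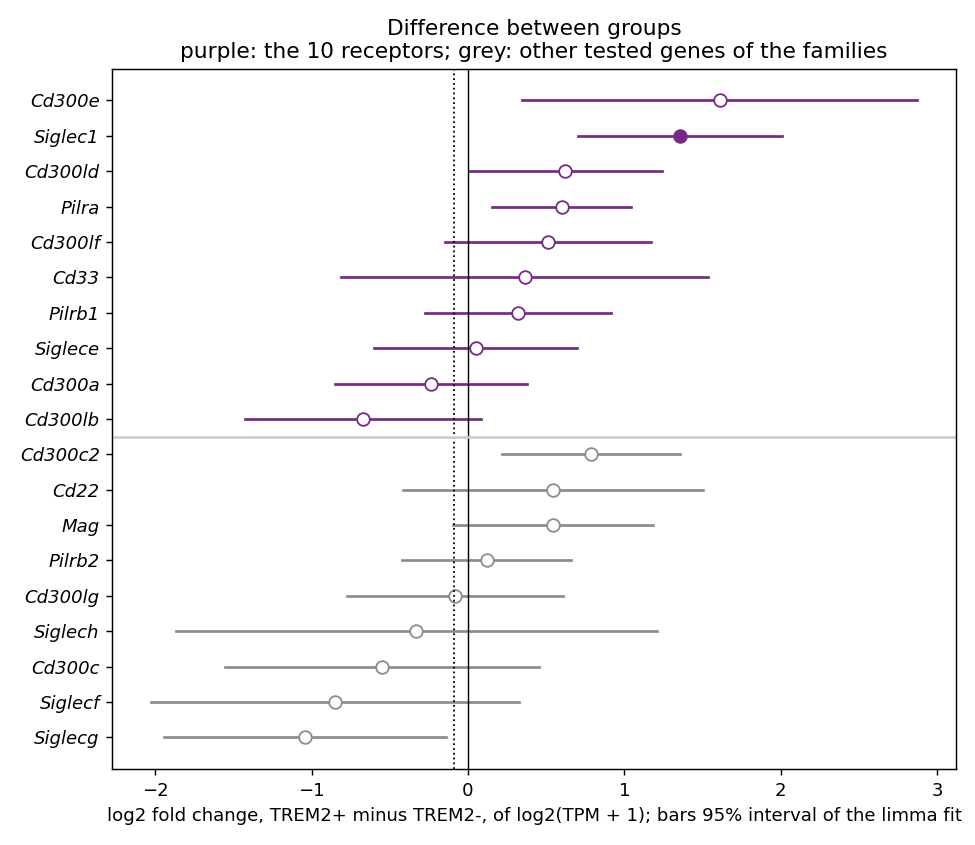
Log2 fold change (TREM2+ minus TREM2-, horizontal axis) of the 10 receptors (purple) and of the 9 other tested genes of the same families (grey), with 95% intervals of the limma fit. A filled point passed an adjusted p of 0.05, which only Siglec1 did, and the dotted line is the median of all tested genes at -0.09.

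Siglec1 (ENSMUSG00000027322.11, chromosome 2, 131069220 to 131086765, mm10) encodes sialoadhesin or CD169, a long adhesion receptor for sialic acid without an inhibitory motif and a marker of resident macrophages of spleen, lymph node and liver. Its level was 8.84, 6.13 and 4.32 TPM in TREM2+ replicates 1, 2 and 3, against 2.34, 1.48 and 1.68 TPM in the same order for TREM2-. Every TREM2+ library was above every TREM2- library, and replicate 1 was the highest of both groups. The means differed 3.51-fold, with a log2 fold change of 1.36 ± 0.29 (95% interval 0.70 to 2.01) and an adjusted p of 0.0482 in limma. Few reads lay behind these values, between 77 and 149 per TREM2- library and between 198 and 487 per TREM2+ library.

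The call of Siglec1 sits at the threshold. It was lost when TREM2+ replicate 1 (adjusted p = 0.209), TREM2+ replicate 2 (0.106), TREM2- replicate 1 (0.0662), TREM2- replicate 2 (0.0722) or TREM2- replicate 3 (0.168) was left out, with log2 fold changes from 1.13 to 1.58 over all 6 such fits. Limma's voom on recovered reads gave 1.71 ± 0.28 with an adjusted p of 0.014, within a range of 0.00279 to 0.273 over the 16 other settings in which the gene was tested. Marker transcripts of Kupffer cells, the resident macrophages of the liver, were higher with it: 6 of 7 passed, and their summed level was 940 to 1935 TPM in the TREM2+ and 137 to 241 TPM in the TREM2- libraries. Within the TREM2+ group that sum was highest in replicate 1 (1935 TPM), as was Siglec1, and lower in replicates 2 (940 TPM) and 3 (1198 TPM). Siglec1 had the opposite order in replicates 2 (6.13 TPM) and 3 (4.32 TPM). The order was also opposite in TREM2- replicates 2 and 3, with sums of 179 and 137 TPM and Siglec1 at 1.48 and 1.68 TPM. Endothelial and hepatocyte marker sums were likewise highest in replicate 1 of the TREM2+ group, at 305 and 360 TPM. In bulk RNA, a larger share of cells of a type and more RNA per cell cannot be told apart, and the part of these markers in the Siglec1 result was not tested.

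The inhibitory receptor Siglece, the mouse counterpart of a human Siglec of neutrophils and monocytes, showed no separation of the groups (ENSMUSG00000030474.9, chromosome 7, 43651070 to 43660161). Its levels were 153, 192 and 102 TPM for TREM2+, against 111, 175 and 140 TPM for TREM2-. In both groups replicate 2 was the highest. The log2 fold change was 0.05 ± 0.29, with a 95% interval of -0.60 to 0.70 and an adjusted p of 0.972 in limma. It was -0.11 without TREM2- replicate 1 and -0.16 without TREM2+ replicate 2.

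Cd33 (ENSMUSG00000004609.11, chromosome 7, 43524216 to 43544428) is a Siglec whose mouse protein lacks the main inhibitory motif of its human relative. It stood at 89.1, 91.1 and 42.5 TPM for TREM2+ and at 23.5, 107 and 63.0 TPM for TREM2-. The highest and the lowest of the 6 values were both TREM2- libraries. Its log2 fold change of 0.36 ± 0.52 had a 95% interval of -0.81 to 1.54, and it was -0.23 without TREM2- replicate 1 and 0.84 without TREM2- replicate 2.

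Among the inhibitory CD300 receptors, Cd300lf binds phosphatidylserine, sphingomyelin and ceramide and is the entry receptor of murine norovirus (ENSMUSG00000047798.15, chromosome 11, 115116214 to 115133992). Its levels of 534, 422 and 354 TPM in the TREM2+ libraries overlapped those of 234, 441 and 267 TPM in the TREM2- libraries through TREM2- replicate 2. The log2 fold change was 0.51 ± 0.29, with a 95% interval of -0.15 to 1.17 (adjusted p = 0.552 in limma). It was 0.33 without TREM2- replicate 1 and 0.78 without TREM2- replicate 2. Cd300a, an inhibitory receptor for phosphatidylserine and phosphatidylethanolamine (ENSMUSG00000034652.12, chromosome 11, 114890041 to 114904654), stood at 123, 168 and 121 TPM against 226, 140 and 129 TPM. Its log2 fold change was -0.24 ± 0.27 (adjusted p = 0.822 in limma), and without TREM2- replicate 1, its highest library, it was 0.01.

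None of the activating CD300 receptors passed the test. Cd300e (ENSMUSG00000048498.7, chromosome 11, 115051917 to 115062177), a DAP12-linked receptor of monocytes, had the highest log2 fold change of the 10 genes in the main limma fit. Siglec1 was above it by ratio of means (3.51 against 2.48) and in voom (log2 fold change 1.71 against 1.54). Cd300e stood at 43.7, 25.1 and 46.0 TPM for TREM2+, against 33.3, 6.29 and 6.70 TPM for TREM2-. TREM2- replicate 1 lay within the TREM2+ range, and the other TREM2- libraries, with 98 and 90 reads, lay far below it. The log2 fold change was 1.61 ± 0.56 (95% interval 0.35 to 2.87) with an adjusted p of 0.241 in limma. Without TREM2- replicate 1 it was 2.34 with an adjusted p of 0.0168, over a range of 0.00653 to 0.759 in the 17 other settings. Of 11 monocyte markers 0 were called higher and 1 lower (Ly6c2), and their sums of 3502 to 29760 and 12566 to 73425 TPM were set mostly by Chil3. At an unadjusted p under 0.05 in limma 5 were lower and 0 higher, beside 5.34% lower and 7.45% higher of all tested genes. Their median log2 fold change was -0.87, and voom called 3 lower and 0 higher. Among markers of patrolling monocytes, Treml4, Ace and Spn were higher in TREM2- replicate 1 than in TREM2- replicates 2 and 3. Nr4a1 was not the highest in TREM2- replicate 1. Treml4 stood at 255 TPM there and at 74.9 and 89.3 TPM in TREM2- replicates 2 and 3, Ace at 17.6 against 1.98 and 2.76 TPM, and Spn at 17.4 against 5.47 and 7.24 TPM, while Nr4a1 stood at 194 against 484 and 186 TPM. Their levels in the TREM2+ libraries were 150 to 169 TPM for Treml4, 5.07 to 5.40 TPM for Ace, 4.20 to 4.77 TPM for Spn and 68.3 to 235 TPM for Nr4a1, and the part of these cells in the Cd300e values was not tested.

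Cd300ld (ENSMUSG00000034641.2, chromosome 11, 114982274 to 114989922) signals through the Fc receptor gamma chain. It was at 245, 291 and 337 TPM in the TREM2+ and at 259, 138 and 184 TPM in the TREM2- libraries. Only TREM2- replicate 1 reached into the TREM2+ range. The log2 fold change was 0.62 ± 0.27 (95% interval 0.01 to 1.24) with an adjusted p of 0.387 in limma, and it was 0.40 without TREM2- replicate 2.

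Cd300lb (ENSMUSG00000063193.8, chromosome 11, 114922781 to 114934386), a DAP12-linked receptor that binds phosphatidylserine, had the lowest log2 fold change of the 10 genes. It stood at 97.3, 140 and 128 TPM in the TREM2+ and at 324, 139 and 157 TPM in the TREM2- libraries. TREM2- replicate 1 held more than any other library, and TREM2- replicate 2 lay just under the highest TREM2+ library. The log2 fold change was -0.67 ± 0.33 (95% interval -1.43 to 0.08, adjusted p = 0.475 in limma), and it was -0.30 without TREM2- replicate 1.

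A ratio of transcripts within a library is free of the scaling between libraries. The ratio of Cd300ld to Cd300lb was 2.52, 2.08 and 2.64 for TREM2+, against 0.80, 0.99 and 1.17 for TREM2-. All TREM2+ libraries held more Cd300ld than Cd300lb per length, while TREM2- libraries held about equal amounts. The mean ratios of 2.41 ± 0.30 and 0.98 ± 0.18 (SD, n = 3) differed 2.45-fold. The exact permutation test on log2 ratios gave p = 0.1, two-sided, the smallest that 3 against 3 libraries allow, and 0.4 after Benjamini-Hochberg adjustment over the 4 ratios computed. These pairs were chosen after the levels had been seen. Ratios of other pairs were not computed, so other pairs may separate the groups as well. The groups overlapped in the other 3 ratios: Cd300lf to Cd300a was 2.52 to 4.33 against 1.04 to 3.15, Siglece to Cd33 1.72 to 2.41 against 1.63 to 4.72, and Pilra to Pilrb1 2.04 to 2.11 against 1.27 to 2.27.

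**Figure D3:**
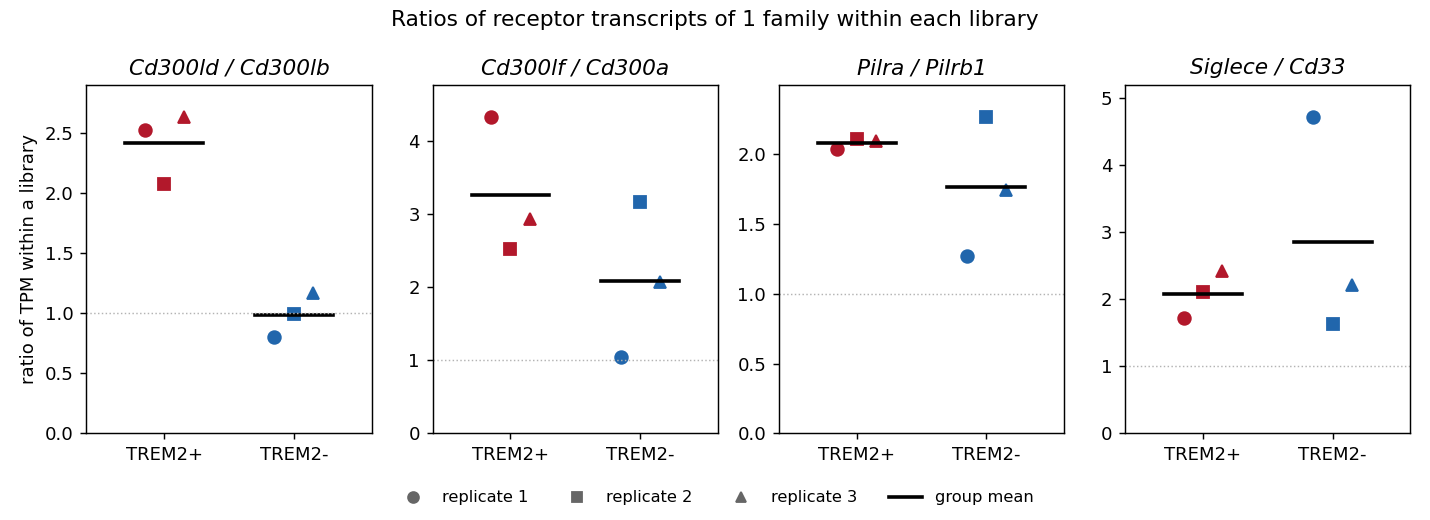
Ratio of TPM of receptors of 1 family within each library (vertical axes, each from 0, with a dotted line at 1) in TREM2+ (red) and TREM2- (blue) libraries, with bars for group means. Among the ratios shown, only that of Cd300ld to Cd300lb separates the groups, at 2.08 to 2.64 against 0.80 to 1.17. The pairs were chosen after the levels had been seen, and ratios of other pairs were not computed.

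Summed over the 5 CD300 receptors, the libraries held 1044, 1045 and 986 TPM in TREM2+ and 1076, 865 and 744 TPM in TREM2- macrophages, so the groups overlapped. The make-up of this sum differed between libraries. Cd300lb took 9.32%, 13.4% and 13% of it for TREM2+, against 30.1%, 16.1% and 21.1% for TREM2-, with no overlap. The shares of Cd300a did not overlap either, by a narrow margin, at 11.8% to 16.03% for TREM2+ and 16.18% to 20.98% for TREM2-. How often such shares separate the groups by chance was not tested. Cd300lf was the largest part in every library but TREM2- replicate 1, with 35.9% to 51.2% in the TREM2+ group and 51.0% and 35.9% in TREM2- replicates 2 and 3. In TREM2- replicate 1 it took 21.7%, less than Cd300lb and Cd300ld (24.0%). The 4 receptors with inhibitory motifs (Cd300a, Cd300lf, Siglece and Pilra) summed to 970 ± 116 TPM in TREM2+ and 784 ± 120 TPM in TREM2-, and the 4 activating ones (Cd300lb, Cd300ld, Cd300e and Pilrb1) to 570 ± 69.3 and 514 ± 210 TPM (SD, n = 3). The groups overlapped in both sums.

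**Figure D4:**
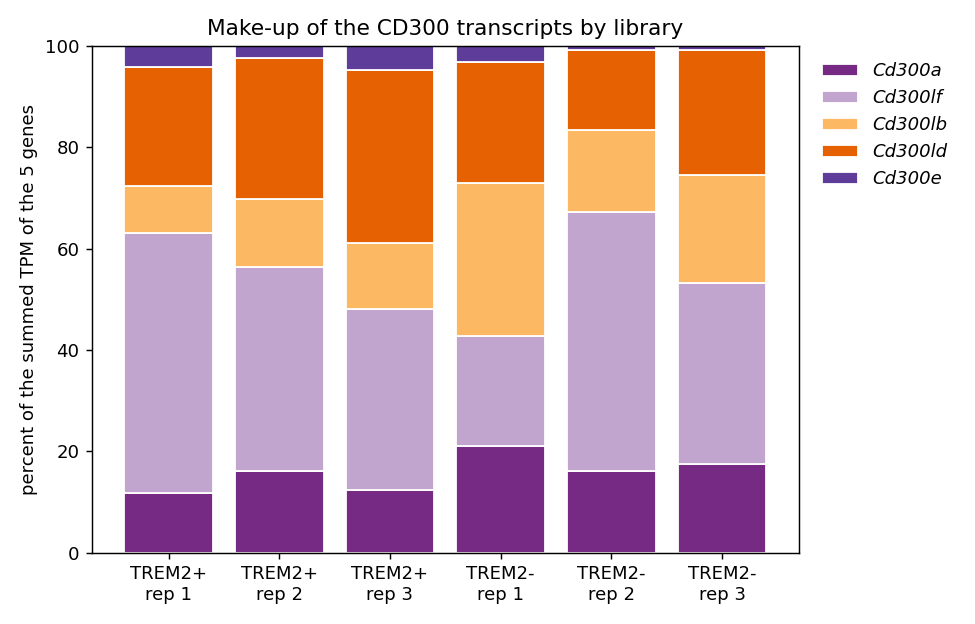
Share of each of the 5 CD300 receptors in their summed TPM (vertical axis, percent) in each library. The light orange part, Cd300lb, takes 9.32% to 13.4% in the TREM2+ and 16.1% to 30.1% in the TREM2- libraries. The shares of Cd300a do not overlap either, at 11.8% to 16.03% and 16.18% to 20.98%.

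Of the PILR pair, the inhibitory Pilra (ENSMUSG00000046245.13, chromosome 5, 137821952 to 137836281) separated the groups without passing the test. It stood at 225, 257 and 259 TPM in the TREM2+ and at 172, 163 and 154 TPM in the TREM2- libraries. All TREM2+ libraries were above all TREM2- libraries. The means differed 1.52-fold and the log2 fold change was 0.60 ± 0.20 (95% interval 0.15 to 1.04), but the adjusted p of 0.21 in limma missed the threshold, as did voom on recovered reads (adjusted p = 0.0829, over a range of 0.0383 to 0.925 in all other settings). Exons of Zcwpw1 on the opposite strand overlap 15.1% of its exonic bases, and Zcwpw1 was listed at 0.82 to 1.42 TPM.

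Pilrb1, the activating partner that signals through DAP12 (ENSMUSG00000066684.10, chromosome 5, 137852147 to 137858106), was at 110, 122 and 124 TPM against 135, 71.7 and 87.8 TPM. TREM2- replicate 1 was the highest of all 6 libraries, and the other TREM2- libraries were below every TREM2+ library. Its log2 fold change was 0.32 ± 0.26 (adjusted p = 0.73 in limma), with 0.57 without TREM2- replicate 1 and 0.12 without TREM2- replicate 2. The neighbouring copy Pilrb2 had 108.8 ± 15.1 and 101 ± 22.7 TPM (SD, n = 3). Of the stretches of 150 bases in Pilrb1 transcripts, 0.26% also occur in Pilrb2. The other 9 receptors share none with transcripts of any other annotated gene, counting identical stretches in the same direction only. Opposite strands, as in the overlap of Pilra and Zcwpw1, were not compared.

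Other genes of the families were measured too, and 0 of 3 tested CD300 genes and 0 of 6 tested Siglec and PILR genes passed in limma or in voom (which tested 2 and 6). At an unadjusted p under 0.05 there was 1 higher CD300 gene and 1 lower Siglec gene, beside 7.45% higher and 5.34% lower of all tested genes. The first was Cd300c2, an activating relative of Cd300ld. It stood at 429, 596 and 403 TPM in the TREM2+ and 311, 215 and 299.9 TPM in the TREM2- libraries, above Cd300lf in the TREM2+ mean. These groups did not overlap, with a log2 fold change of 0.79 ± 0.25 (adjusted p = 0.197 in limma). The second was Siglecg, an inhibitory Siglec of B cells, at 9.96, 11 and 10.9 TPM against 42.1, 11.5 and 24.4 TPM. Its log2 fold change was -1.04 ± 0.40 (adjusted p = 0.294 in limma).

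The remaining family members were low, and Cd300lg, Siglecf, Siglech and Cd22, like Siglecg, also stand in the marker lists of the cells named with them. Cd300lg, a receptor of endothelium, stood at 14.0 ± 3.29 and 15.2 ± 5.89 TPM (SD, n = 3). Siglecf of eosinophils stood at 19.7 ± 6.32 and 43.2 ± 30.8 TPM, Siglech of plasmacytoid dendritic cells at 2.74 ± 0.51 and 5.97 ± 7 TPM, and Cd22 of B cells at 6.71 ± 0.35 and 5.04 ± 3.52 TPM. Mag was at 5.61 ± 0.88 and 3.65 ± 1.37 TPM and Cd300c at 1.48 ± 1 and 2.82 ± 2.11 TPM. Cd300ld2 and Cd300ld3 reached at most 1.02 and 1.07 TPM and Siglec15 0.12 TPM, while Cd300ld4 and Cd300ld5 were listed at 0. The last 2 and Cd300ld3 share most stretches of 150 bases, 78.7% to 79.5%, so their reads are uncertain.

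TREM2- replicate 1 was at an extreme for several receptors and stood apart in markers of other cells. It was the highest of the 6 libraries for Cd300a, Cd300lb and Pilrb1 and the lowest for Cd300lf and Cd33. Such extremes were not particular to it. TREM2+ replicate 3 was the highest for 3 receptors and the lowest for 2, and TREM2- replicate 2 the highest for 1 and the lowest for 4. The summed markers of T and NK cells came to 3134 TPM in TREM2- replicate 1 and to 811 to 1344 TPM in the other 5 libraries. Those of B cells were at 422 TPM against 72.9 to 202 TPM, and those of plasmacytoid dendritic cells at 242 TPM against 40.5 to 93.4 TPM. Eosinophil, basophil and mast cell, conventional dendritic cell and hepatocyte markers were likewise highest in this library, at 516, 221, 272 and 493 TPM. The hepatocyte sum was next highest in TREM2+ replicate 1, at 360 TPM, and 70.1 to 128 TPM in the remaining libraries.

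Macrophage markers were present in every library, with Adgre1 (F4/80) at 149 to 333 TPM. Their sums were 32823 to 43107 TPM in the TREM2+ and 57649 to 72939 TPM in the TREM2- libraries. These sums were set mostly by Lyz2, at 28336 to 37301 TPM and 55343 to 70509 TPM. Without overlap of the groups, 5 of the 9 markers were higher in TREM2+ and 1, Lyz2, was lower. This held for 9.07% and 7.62% of all tested genes. Of 9 tested, 2 passed as higher in TREM2+, the complement gene C1qa among them, and 0 as lower. Trem2 itself stood at 37.0 ± 5.51 and 19.5 ± 2.28 TPM (SD, n = 3), higher in all TREM2+ libraries, with an adjusted p of 0.0855 in limma. Neutrophils also express several of these receptors, and their markers summed to 16215 to 20371 TPM in the TREM2+ and 20359 to 23494 TPM in the TREM2- libraries, with 0 of 9 higher and 1 lower (Camp). Before adjustment 2 of them were higher (Cxcr2 and S100a9) and 3 lower (Camp, Ngp and Retnlg), and their median log2 fold change was 0.09. Basophil and mast cell markers summed to 18.3 to 27.4 TPM in TREM2+ and 118 to 221 TPM in TREM2-, with 3 of 7 lower (Prss34, Mcpt8 and Cpa3). Endothelial markers had 7 of 9 higher, with sums of 217 to 305 against 29.1 to 58.2 TPM. No marker of any list was at 0 in all 6 libraries. The part of these cells in the receptor values was not tested.

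**Figure D5:**
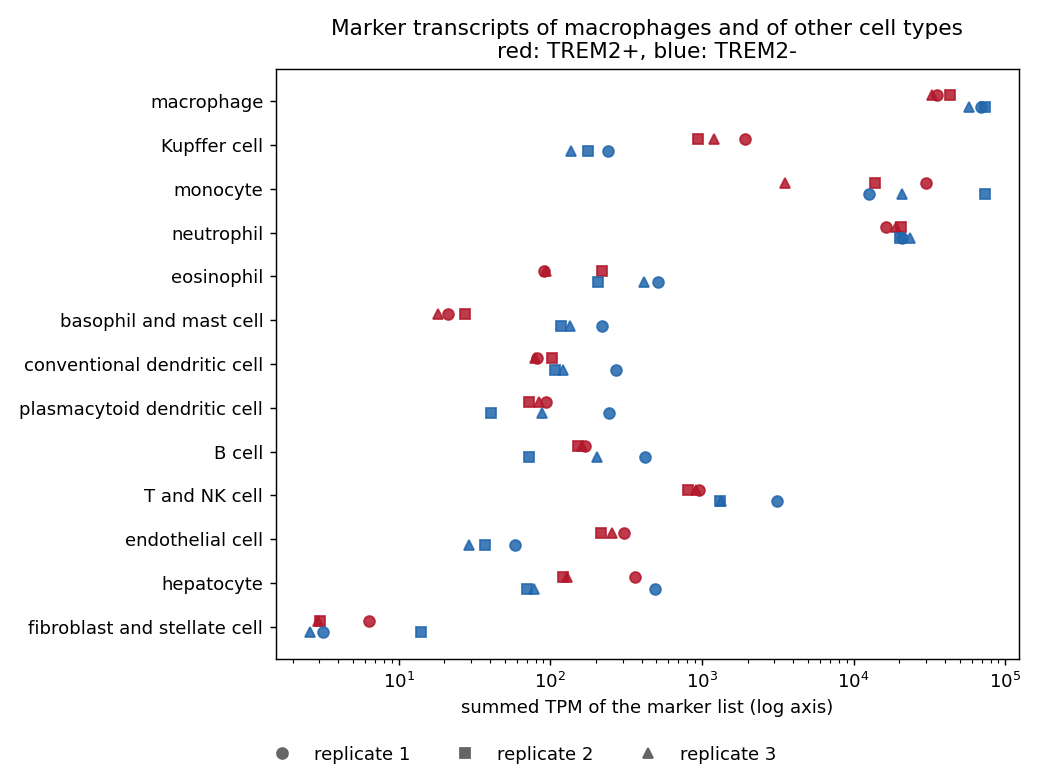
Summed TPM of marker lists for macrophages and 12 other cell types (horizontal log axis) in TREM2+ (red) and TREM2- (blue) libraries, with symbols for the replicate. Kupffer cell and endothelial sums are higher in all TREM2+ libraries, and TREM2- replicate 1 (blue circle) has the highest T and NK cell sum at 3134 TPM. The macrophage sum is set mostly by Lyz2.

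None of 15 adaptors, kinases and phosphatases of these receptors passed in limma, where only the Src-family kinase Fgr and the phospholipase Plcg2 were lower before adjustment, and voom called 1 gene lower, Fgr. Their median log2 fold change was -0.19. The adaptor Tyrobp stood at 6240 ± 683 and 6952 ± 850 TPM (SD, n = 3) and Fcer1g at 5852 ± 603 and 4979 ± 118 TPM, far above any receptor that uses them. Ptpn6, which encodes SHP-1, stood at 476 ± 31.7 and 626 ± 198 TPM.

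On the ligand side, 1 of 22 tested genes of sialic acid synthesis, transfer and removal passed, and 0 were lower. This was Npl, the lyase that breaks down free sialic acid, which rose from 7.42 ± 1.38 to 23.3 ± 2.43 TPM (SD, n = 3), a log2 fold change of 1.54 ± 0.23 (adjusted p = 0.0104 in limma). The list's median was -0.13, close to that of all genes. Sialyltransferases that cap glycans for these receptors did not pass, among them St3gal4 at 56.7 ± 5.47 and 81.7 ± 17.6 TPM and St3gal6 at 13.1 ± 1.72 and 8.65 ± 2.38 TPM. Of 5 tested protein ligands 1 passed, Clec4g, a PILRA-binding lectin of sinusoidal endothelium that is also in the endothelial marker list.

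The list of other receptors for phosphatidylserine and apoptotic cells held more called genes. Of 8 tested, 5 rose, 0 fell and 3 did not pass, with a median log2 fold change of 1.79, and Trem2, the gene the cells were labelled by, is 1 of the 3. Stab2 had a log2 fold change of 2.29 ± 0.29, Axl of 1.72 ± 0.25, Cd36 of 2.03 ± 0.31 and Stab1 of 1.78 ± 0.30, with adjusted p-values in limma of 0.00573, 0.00984, 0.0115 and 0.0195. Stab2 and the called Timd4 (1.79 ± 0.32) are also in the endothelial and Kupffer cell marker lists. Whether this list differs from the CD300 genes was not tested.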

How the data were processed

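RNA-seq libraries of 3 TREM2+ and 3 TREM2- samples were analysed. Per the submitters' processing notes, STAR 2.7.10a, Subread and featureCounts 2.0.3 were used with mm10. The sources used here name no annotation release, strand setting or formula. The deposited values are a signal per exon length: the 6 columns together, not each, sum to 1000000. Each column was rescaled to 1000000 (TPM). No column lacked a sample. Multiplying the deposited signal by GENCODE M21 exon length gave whole reads (within 0.01) in all 6 libraries for 98.7% of 36673 matched genes above 0. Depth, summed over the genes with whole reads, was 11493465 to 19929829 reads. No 2 replicates agreed within sampling noise (chi-square per degree of freedom at least 65.7).

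The filter kept genes that reached 1 TPM in 3 or more of the 6 libraries. Limma 3.58.1 (R 4.3.3), with its trend option, then compared log2(TPM + 1) between the groups. Its two-sided p-values were Benjamini-Hochberg adjusted over all genes kept, and 0.05 was the threshold. The fit was tested on simulated reads, whose spread between libraries was set beforehand and not taken from these replicates. All 10 members are named. From the lists of related genes, up to 4 called genes with the smallest p and family genes with at least 1 TPM in any library are named, and from the marker lists sums and up to 2 genes. Timd4, Cd300ld4, Cd300ld5, Siglec15, uncalled signalling, sialic acid and Trem2 genes, Zcwpw1, Lyz2, Ly6c2, Chil3, Treml4, Ace, Spn, Nr4a1, Cxcr2, S100a9, Ngp, Retnlg, Prss34, Mcpt8 and Cpa3 were named after their values were seen. Members and lists were chosen with earlier results of these data known. Alternatives covered pseudocount, filter, scaling, replicate block, trend, library weights, voom and libraries left out.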

Additional observations from a re-analysis of the deposited data

How the results depend on the processing

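Depth limits Siglec1 most, with 77 reads in its lowest library. The number of members called was 1, and it was 0 without a filter on low values, with at least 5 TPM (where Siglec1 was not tested), on deposited values, with a replicate block and without both libraries numbered 3, and 4 with library weights (Siglec1, Cd300e, Cd300ld and Pilra). Leaving out 1 library gave 0 to 1: Siglec1 without TREM2+ replicate 3 and Cd300e without TREM2- replicate 1. Genes called higher (282) numbered 95 without a filter, 116 with the replicate block, 976 with library weights, 444 with voom and 0 without both libraries numbered 3 (before adjustment 636 were higher and 444 lower), and 116 to 342 with 1 library left out. Genes called lower (51) numbered 31 with a pseudocount of 0.1, 3 without a filter, 80 with median-of-ratios scaling, 92 on deposited values, 82 without the repeat family and mitochondrial genes, 10 with the block, 389 with weights, 170 with voom, 0 without both libraries numbered 3, and 7 to 105 with 1 library left out. With the replicate block Siglec1 kept its log2 fold change of 1.36 (adjusted p = 0.0802). Deviations of same-numbered libraries correlated at 0.19, -0.03 and 0.22, and those of differently numbered libraries at -0.38 to 0.13. The labels do not say that the numbers pair the samples, so the main fit has no block. Whether same-numbered libraries share a batch was not tested. Log2 fold changes near 0 changed sign. Siglece (0.05) was -0.041 on deposited values, -0.018 without the repeat family and mitochondrial genes, -0.082 with library weights, -0.0178 with voom, and -0.16 to 0.30 with 1 library left out. Cd33 (0.36) was -0.13 with library weights and -0.23 to 0.84 with 1 library left out. Cd300a (-0.24) was -0.39 to 0.012 with 1 library left out. The cause of these changes was not tested, beyond fewer genes or samples where those were removed. Cd300e, Cd300ld, Cd300lf, Pilra and Pilrb1 stayed positive and Cd300lb negative in all 17 settings. A count test with edgeR was not run.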
